A study of Mus musculus with 167 samples.

Results

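Acute phase proteins are plasma proteins whose liver output changes in inflammation, and 10 of their genes are described here in mouse liver: Orm1, Orm2, Orm3, Saa1, Saa2, Saa3, Lcn2, Hp, Fgb and Apcs. Each gene was found by the array annotation, and where a gene had several probe sets the one with the highest mean over all arrays stood for it. These 10 are members of 18194 genes that the annotation names with a single symbol. All 10 passed the filter on dim genes, which left 12623 genes in the test. Lcn2 is the dimmest of them, above its array's median in 105 of 167 arrays, and the other 9 were above it in all 167.

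The series asked how liver transcripts of male C57BL/6 mice respond to the barbiturate phenobarbital when the nuclear receptors CAR and PXR are the mouse proteins, are absent, or are the human proteins. Livers came from wild-type mice, CAR/PXR knockout mice (CARKO-PXRKO) and humanized mice (CARh-PXRh). The labels give an age of 9 to 11 weeks for every group, so it cannot be the age at collection on every day. This age and the dose below are what the labels state for these groups, although their protocol text also mentions others. In each genotype, 1 arm drank 0.05% (wt/vol) phenobarbital and the control arm received none. Livers were collected after 1, 7, 14, 28 or 91 days of dosing, or 4 weeks after it ended (day 119), with 3 to 5 samples in each of the 36 groups. All groups share sex and strain, every sample is labelled as a separate animal, on 1 Affymetrix array, and each genotype and day has its own controls. What drives the human receptors in these mice is not given in the available sources.

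The targeted mouse genes separated wild-type livers from knockout and humanized livers, but did not separate the knockout from the humanized livers. Nr1i3, which encodes CAR, lay between 7.74 and 8.91 in 56 wild-type livers and between 4.67 and 5.46 in the 55 knockout and 55 humanized livers. Nr1i2, which encodes PXR, lay between 6.91 and 8.02 in wild-type livers and reached at most 4.01 and 4.19 in the other genotypes. The mean of 7 hepatocyte markers lay between 13.55 and 13.96 in every liver. Acinar pancreas genes averaged above 7 in 29 of 166 livers, 15 control and 14 treated. The signal was not even between genotypes. All 8 tested acinar genes were called lower in humanized than in wild-type controls (median difference -1.167), beside 16.5% of all genes. In knockout against wild-type controls 1 of the 8 was called lower (median -0.96), beside 10.9%. Treated humanized animals 6026 and 6030 of day 119 had near-identical arrays and entered as 1 averaged sample. The arrays of treated knockouts 4019 (day 28) and 4024 (day 91) were near-identical under different labels and were kept. Several knockout values of Orm2 and Orm3 are therefore also given without them.

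In the acute phase response, interleukin 6, interleukin 1 and related cytokines act on hepatocytes, where STAT3, C/EBP factors and NF-kB raise transcription of secreted proteins. Serum amyloid A proteins (Saa1, Saa2, Saa3) associate with high-density lipoprotein, the orosomucoids (Orm1, Orm2, Orm3) bind drugs and dampen immune responses, and lipocalin 2 (Lcn2) withholds iron from bacteria by binding siderophores. Haptoglobin (Hp) binds free haemoglobin, the fibrinogen beta chain (Fgb) forms clots, and serum amyloid P (Apcs) is the short pentraxin that serves as an acute phase reactant in the mouse.

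The results turn mainly on Orm2 and Orm3, which neighbour each other on chromosome 4, and on Saa1 and Saa2 on chromosome 7, so the 250 bases before their RefSeq transcription starts (GRCm38.p6) are printed to show how alike the upstream regions of each pair are. Capitals mark matches to a C/EBP core, TTGNNNAA read on both strands. The windows are chr4:63362199-63362448 on the plus strand for Orm2, chr4:63355908-63356157 on the plus strand for Orm3, chr7:46742981-46743230 on the minus strand for Saa1 and chr7:46751583-46751832 on the plus strand for Saa2.
Orm2: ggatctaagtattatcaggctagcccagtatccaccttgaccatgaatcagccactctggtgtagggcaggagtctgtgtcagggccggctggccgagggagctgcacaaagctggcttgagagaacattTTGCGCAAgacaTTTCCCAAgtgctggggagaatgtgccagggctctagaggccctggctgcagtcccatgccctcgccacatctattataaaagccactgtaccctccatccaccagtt
Orm3: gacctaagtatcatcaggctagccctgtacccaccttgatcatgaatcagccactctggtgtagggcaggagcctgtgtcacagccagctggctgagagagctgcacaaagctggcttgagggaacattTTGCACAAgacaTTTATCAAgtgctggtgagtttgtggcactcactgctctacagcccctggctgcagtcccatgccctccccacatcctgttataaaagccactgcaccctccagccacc
Saa1: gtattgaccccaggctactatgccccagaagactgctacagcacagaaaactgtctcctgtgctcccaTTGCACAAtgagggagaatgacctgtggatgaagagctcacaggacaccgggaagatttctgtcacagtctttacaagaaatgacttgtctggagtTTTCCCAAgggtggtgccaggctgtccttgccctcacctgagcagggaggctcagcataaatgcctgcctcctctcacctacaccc
Saa2: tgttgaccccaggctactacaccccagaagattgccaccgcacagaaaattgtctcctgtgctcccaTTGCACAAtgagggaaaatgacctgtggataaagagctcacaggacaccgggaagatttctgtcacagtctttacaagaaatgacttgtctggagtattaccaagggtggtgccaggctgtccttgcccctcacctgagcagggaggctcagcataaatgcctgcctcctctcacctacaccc

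Over these windows a global alignment left 218 of 255 columns identical (85.5%) for Orm2 and Orm3, and 238 of 251 (94.8%) for Saa1 and Saa2. Orm2 and Orm3 each hold 2 separate matches to the C/EBP core, starting 120 and 108 bases before the start in Orm2 and 121 and 109 bases before it in Orm3. Saa1 and Saa2 share a match, which starts 182 bases before the Saa1 start and 183 bases before that of Saa2, and Saa1 has another at 86. Among 32851 RefSeq windows of the same length, 33.3% hold this core. RefSeq windows were matched for 8 of the 10 members, namely all but Orm1 and Hp. The same core is present in Saa3, Lcn2 and Fgb, and a STAT core (TTCNNNGAA) is present in Fgb and Apcs and in 7.0% of all windows. The NF-kB pattern GGGNNTTTC was in none of the 8 and in 3.7% of all windows. These matches describe letters in the windows and show no binding.

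All levels are log2 expression as deposited, and a difference is phenobarbital minus control in log2 units with its standard error (SE) after ±. A gene was called where limma's two-sided test, with Benjamini-Hochberg adjustment over all genes tested, gave an adjusted p under 0.05. Orm1, Hp and Fgb averaged 13.27, 13.63 and 14.06, near the top of the measured range of 2.11 to 15.07, where the scale may be compressed. Compression was not measured here. Saa1 and Saa2 cannot be fully separated. The second probe set annotated to Saa1, not used here, lists the same transcript record as the Saa2 probe set. It followed the Saa2 probe set with r = 0.96 over 167 arrays, and the Saa1 probe set used here with r = 0.98. The Saa1 and Saa2 probe sets used here followed each other with r = 0.91. The livers are bulk tissue, in which fewer cells of a type and less RNA per cell cannot be told apart.

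Orm3 rose in wild-type liver from day 7 on. On day 28 its control levels were 5.73, 5.84, 5.85, 5.94 and 6.07, and its treated levels were 7.35, 7.56, 7.57, 7.74 and 7.89. Every treated liver lay above every control. The difference was 1.74 ± 0.17, adjusted p = 3.13e-16, or 3.34-fold. On the other days Orm3 also had no overlap between arms on days 7 (1.54 ± 0.19, adjusted p = 7.35e-11), 14 (1.31 ± 0.18, adjusted p = 4.41e-09) and 91 (1.36 ± 0.18, adjusted p = 1.38e-09). On day 1 the levels were 5.73, 5.87, 5.88, 6.06 and 6.26 in controls and 6.10, 6.16, 6.36, 6.49 and 6.51 in treated livers, and the arms overlapped (0.36 ± 0.17, adjusted p = 0.151).

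Orm2 also rose in wild-type liver, with more spread between animals (SD within groups 0.52, against 0.27 for Orm3). Its day 28 levels were 6.90, 6.92, 7.23, 7.36 and 7.64 in controls and 8.61, 8.71, 8.83, 9.17 and 10.28 in treated livers, which did not overlap. The difference was 1.91 ± 0.33, adjusted p = 4.98e-06, or 3.75-fold. It also passed on day 7 (1.25 ± 0.36, adjusted p = 0.0356) and day 14 (1.21 ± 0.35, adjusted p = 0.0155). The day 7 call was lost without any 1 of animals 1006, 1008, 1010, 2007, 2008 and 2009, with adjusted p between 0.0564 (without 1006) and 0.155 (without 1008), and the day 14 call without 1014 (adjusted p = 0.0755) or 2013 (0.0545). On day 91 the difference of 1.08 missed the threshold (adjusted p = 0.0747), although all 5 treated livers were above all 4 controls, and it passed without control 1021 (1.31, adjusted p = 0.0427).

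Orm1, the other orosomucoid, changed by less, and whether its high position on the scale had a part in this was not tested. On day 28 its levels were 13.02, 13.17, 13.22, 13.30 and 13.36 in wild-type controls and 13.40, 13.40, 13.42, 13.49 and 13.57 in treated livers, without overlap, and the difference was 0.24 ± 0.067, adjusted p = 0.0125. That call was lost without control 1017 (adjusted p = 0.104) or treated 2018 (0.0612), and in a fit of only these 2 groups (0.0862).

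**Figure D1:**
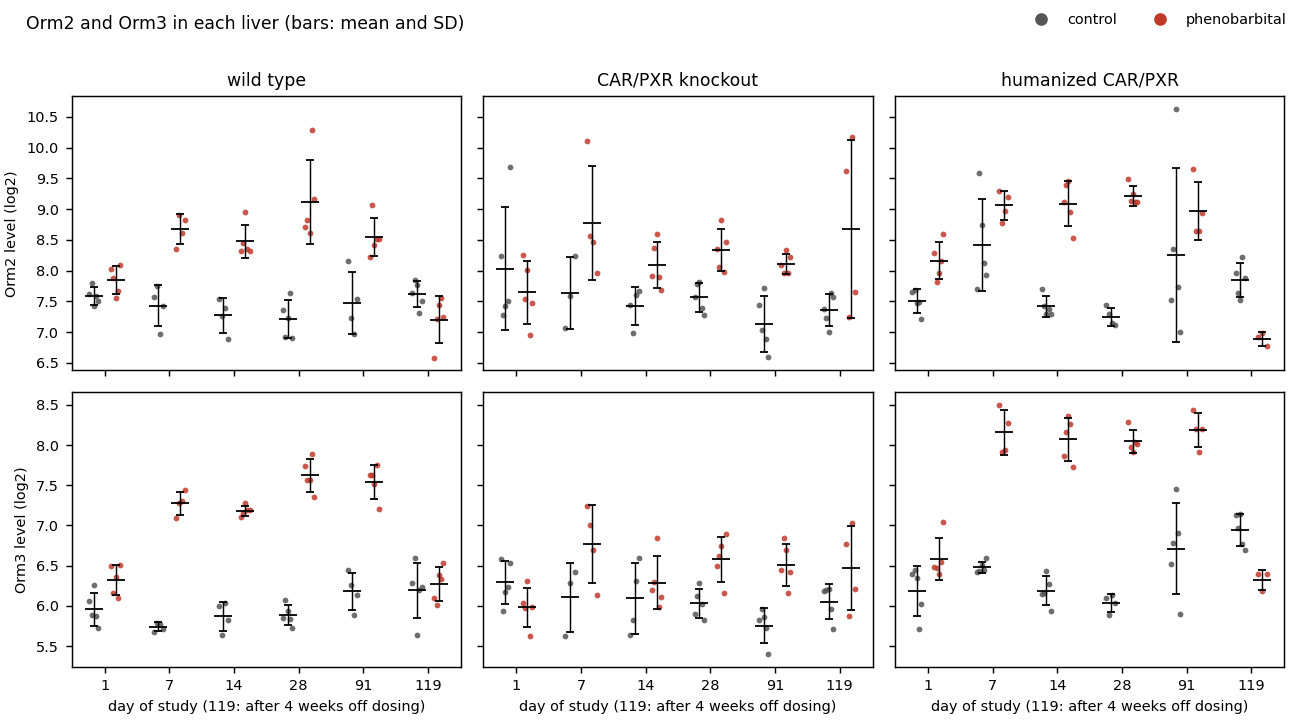
Orm2 (top row) and Orm3 (bottom row) log2 levels in each liver against the day of study, by genotype, with control livers in grey, phenobarbital livers in red, and a bar for the mean with the SD. In wild-type and humanized livers the treated Orm3 values of days 7 to 91 lie above all controls of their day, while in the knockout the arms overlap except on day 91.

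Orm3 also rose in humanized liver. Its day 28 levels were 5.88, 6.04, 6.10 and 6.13 in controls and 7.92, 7.98, 8.01, 8.04 and 8.29 in treated livers, with no overlap. The difference was 2.01 ± 0.18, adjusted p = 2.04e-18, or 4.02-fold. It passed as well on day 7 (1.68 ± 0.18, adjusted p = 1.08e-13), day 14 (1.88 ± 0.17, adjusted p = 4.98e-18) and day 91 (1.48 ± 0.18, adjusted p = 4.18e-11), without overlap on any of them. On day 1 it did not pass (0.40 ± 0.17, adjusted p = 0.101).

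Orm2 in humanized liver passed on days 14 and 28. Its day 28 levels were 7.11, 7.15, 7.30 and 7.44 in controls and 9.11, 9.12, 9.13, 9.24 and 9.49 in treated livers, and the difference was 1.97 ± 0.35, adjusted p = 1.02e-05, or 3.91-fold. Day 14 gave 1.67 ± 0.33, adjusted p = 6.88e-05, again without overlap. On day 7 the controls ran from 7.71 to 9.58 and the treated livers from 8.77 to 9.30, so that the arms overlapped (0.64 ± 0.35, adjusted p = 0.341). On day 1 every treated liver lay above every control, but the difference did not pass (0.66 ± 0.33, adjusted p = 0.181), except in a fit of only these 2 groups (adjusted p = 0.0299). On day 91 control 5023 reached 10.63, above every treated liver, and the difference of 0.72 (adjusted p = 0.391) became 1.31 (adjusted p = 0.00913) without that animal.

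The knockout, which has neither receptor, showed smaller Orm3 rises on average, and none on day 1. Its Orm3 differences were -0.30 on day 1, 0.67 on day 7 and 0.20 on day 14. None of these 3 passed (adjusted p = 0.274, 0.38 and 0.713). Orm3 levels on day 91 were 5.40, 5.72, 5.83, 5.86 and 5.96 in controls and 6.16, 6.42, 6.45, 6.69 and 6.84 in treated livers, which did not overlap. The difference was 0.76 ± 0.17, adjusted p = 0.0049, or 1.69-fold, and 0.85 (adjusted p = 0.00409) without arrays 4019 and 4024. On day 28 the levels were 5.83, 5.90, 6.02, 6.12 and 6.29 and 6.16, 6.49, 6.62, 6.74 and 6.89, with overlap, and the difference was 0.54 ± 0.17, adjusted p = 0.0353 (0.65, adjusted p = 0.0153, without those arrays). The day 28 call was lost without any 1 of 3016, 3019, 3020, 4017, 4018 and 4020, with adjusted p from 0.0528 (without 4017) to 0.136 (without 4020). In fits of only the 2 compared groups neither day passed (adjusted p = 0.0767 on day 91 and 0.0831 on day 28).

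Orm2 in the knockout passed on no single day, although its arms did not overlap on days 14, 28 and 91. On day 91 its levels were 6.59, 6.89, 7.03, 7.44 and 7.72 in controls and 7.96, 7.96, 8.09, 8.22 and 8.33 in treated livers (0.98 ± 0.33, adjusted p = 0.0683). The differences were -0.38 on day 1, 1.14 on day 7, 0.67 on day 14 and 0.77 on day 28. On day 7 the treated range of 7.96 to 10.10 was set by animal 4007, whose neighbour stood at 8.56.

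Averaged over the 5 dosing days, Orm2 and Orm3 passed in all 3 genotypes. The Orm3 means were 1.26 ± 0.078, adjusted p = 1.34e-30, in wild type, 1.49 ± 0.077, adjusted p = 1.69e-37, in humanized mice, and 0.37 ± 0.079, adjusted p = 0.000208, in the knockout, that is 2.40-fold, 2.81-fold and 1.29-fold. The Orm2 means were 1.14 ± 0.15, adjusted p = 4.89e-10, in wild type, 1.13 ± 0.15, adjusted p = 3.73e-10, in humanized mice, and 0.63 ± 0.15, adjusted p = 0.0013, in the knockout. Without arrays 4019 and 4024 the knockout means were 0.41 for Orm3 (adjusted p = 6.11e-05) and 0.66 for Orm2 (adjusted p = 0.00122).

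The difference of these means between genotypes was tested directly. For Orm3 the knockout effect was smaller than the wild-type effect by 0.89 (difference -0.89 ± 0.11, adjusted p = 9.06e-11) and smaller than the humanized effect (humanized minus knockout 1.12 ± 0.11, adjusted p = 1.4e-15). Both calls were kept without any 1 animal. Humanized and wild-type effects on Orm3 differed by 0.23 ± 0.11, adjusted p = 0.333, which did not pass. For Orm2 none of the 3 differences passed: -0.51 ± 0.22, adjusted p = 0.114, for knockout minus wild type, 0.50 ± 0.22, adjusted p = 0.138, for humanized minus knockout, and -0.01 for humanized minus wild type. Knockout minus wild type passed for Orm2 without animal 4007 (-0.59, adjusted p = 0.0475), and humanized minus knockout without 5023 (0.62, adjusted p = 0.0254). Orm1 means passed in wild type (0.11 ± 0.031, adjusted p = 0.00458) and in the knockout (0.09 ± 0.032, adjusted p = 0.0381), the latter lost without any 1 of 13 of its 46 animals (adjusted p up to 0.12, without 3007), and not in humanized mice (0.06 ± 0.031, adjusted p = 0.135), where it passed without 5023 (0.08, adjusted p = 0.0281).

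Counted over the members and set beside all genes, 1 of 10 passed in knockout minus wild type (13.4% of all genes) and in humanized minus knockout (10.1%), both times Orm3. The first count became 2 without 4007. The second became 2 in 24 of 93 omissions, through Fgb (-0.08 to -0.07, adjusted p = 0.0259 to 0.0493) or, without 5023, Orm2. None of the 10 passed limma's test in humanized minus wild type (1.88%), with 1 at an unadjusted p under 0.05. The shares of 1 in 10 lie near those of all genes, so that the result is about Orm3 and not about the members as a group.

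The Orm3 difference was larger on day 91 than on day 1 in each genotype. In the knockout it was -0.30 ± 0.17 on day 1 (adjusted p = 0.274), so the comparison there does not start from a rise. The day 91 effect minus the day 1 effect was 0.99 ± 0.24, adjusted p = 0.025, in wild type, 1.06 ± 0.24, adjusted p = 0.0128, in the knockout, and 1.08 ± 0.24, adjusted p = 0.00542, in humanized mice. Of the 10 members Orm3 alone passed in these comparisons, beside 0.436%, 0.665% and 1.74% of all genes. The wild-type call was lost without any 1 of 1001, 1003, 1023, 1025, 2002, 2004 and 2024 (adjusted p = 0.053 to 0.0974), and the knockout call without 3001 (adjusted p = 0.0532). The humanized call was kept without any 1 of the 19 animals. These comparisons reuse the livers of the single-day comparisons.

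After 4 weeks off the drug no orosomucoid passed in wild-type or humanized mice. In humanized liver on day 119, Orm3 was 6.70, 6.77, 6.97, 7.13 and 7.14 in controls and 6.18, 6.39 and 6.40 in the previously treated samples, all 3 below all 5 controls. The difference was -0.61 ± 0.19, adjusted p = 0.174. These controls had the highest Orm3 mean of the humanized control groups, 6.94, against 6.04 to 6.71 on days 1 to 91. The Orm3 mean of the previously treated samples, 6.33, lay inside that earlier range. Orm2 in humanized liver on day 119 was 7.52, 7.64, 7.88, 7.96 and 8.23 against 6.77, 6.93 and 6.98 (-0.95 ± 0.38, adjusted p = 0.325). Again every formerly treated sample was lowest, and neither gene passed. The Orm2 mean of these treated samples, 6.89, lay below the means of all humanized control groups, which ran from 7.25 to 8.41. With array weights the Orm3 difference passed (-0.61, adjusted p = 0.045). In wild type the day 119 arms overlapped for Orm3 (0.07) and Orm2 (-0.41), and none of the 10 members passed limma's test in wild type (0.0238% of all genes) or humanized mice (0.214%), with 0 and 3 members at an unadjusted p under 0.05.

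**Figure D2:**
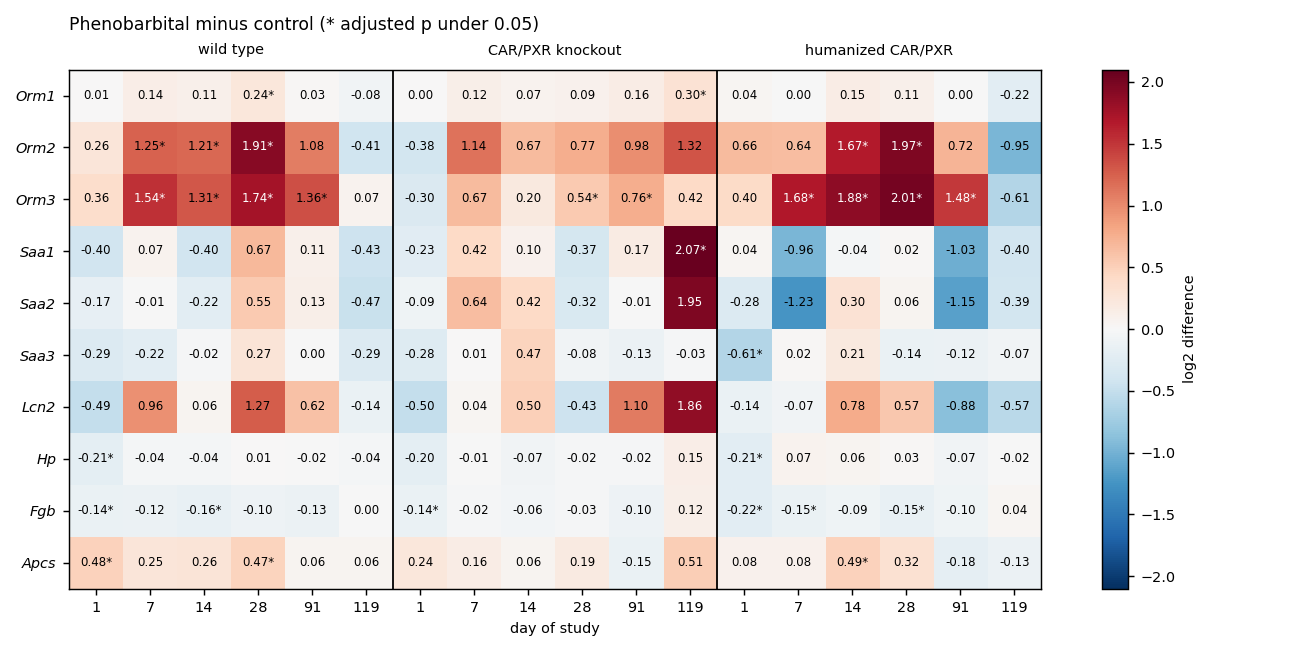
Heat map of the phenobarbital minus control difference (log2, red higher and blue lower in treated livers) for the 10 members (rows) on each day in each genotype (columns), with an asterisk where limma's adjusted p was under 0.05. Orm2 and Orm3 are above 0 from day 7 to day 91 in all 3 genotypes, in the knockout at 0.20 to 1.14. Saa1 has its only call, 2.07, in the knockout on day 119.

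Counts of members called on single days were small. In wild type they were 3 of 10 on day 1 (Hp and Fgb lower, Apcs higher, beside 12.0% of all genes), 2 on day 7 (2.72%), 3 on day 14 (8.79%), 4 on day 28 (5.55%) and 1 on day 91 (2.13%). Every member that passed on days 7 to 91 was higher, except Fgb on day 14. Control or treated animals moved the day 1 count to 1 (without 1001, 1003, 2002 or 2004), the day 7 count to 1 (without the animals named for Orm2), the day 28 count to 2 (without 1017 or 2018) and the day 91 count to 3 (without 1021, which added Orm2 and Fgb).

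In humanized mice 3 of 10 passed on day 1, all lower (11.7% of all genes). Later counts there were 2 (day 7, 4.84%), 3 (day 14, 11.9%), 3 (day 28, 7.70%) and 1 (day 91, 2.19%). The day 91 count was 2 without 5023, the day 7 count was 1 without animal 6006 and the day 1 count was 1 without 5004. In the knockout 1 passed on each of days 1 (8.07%), 28 (5.16%) and 91 (3.45%), and 0 passed limma's test on days 7 (0.0158%) and 14 (0.325%), where 2 and 1 members had an unadjusted p under 0.05. Over the dosing-day mean, 5 members passed in wild type (31.5% of all genes), 4 in the knockout (19.6%) and 3 in humanized mice (32.4%), the last a share no higher than that of all genes, which became 5 without 5023. The median mean difference of the 10 members was 0.08 in wild type, 0.09 in the knockout and 0.01 in humanized mice, beside medians of -0.013, 0.008 and -0.002 over all genes.

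Saa1, Saa2 and Saa3 were not called higher during dosing in any genotype. On day 28 wild-type Saa1 was 9.29, 9.30, 9.74, 9.81 and 10.46 in controls and 9.98, 10.22, 10.36, 10.42 and 11.00 in treated livers (0.67 ± 0.44, adjusted p = 0.47), and the arms overlapped. Over the dosing days the Saa1 mean differences were 0.01 ± 0.21, adjusted p = 0.979, in wild type, 0.02 ± 0.21, adjusted p = 0.97, in the knockout, and -0.39 ± 0.21, adjusted p = 0.134, in humanized mice. The Saa2 means were 0.05, 0.13 and -0.46 ± 0.22, adjusted p = 0.107, in the same order, and the last passed without control 5025 (-0.56, adjusted p = 0.0384).

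On 2 days the humanized treated livers had lower Saa1 means, without passing. On day 7 Saa1 was 9.57, 9.61, 10.57, 11.72 and 12.65 in controls and from 9.52 to 10.25 in the 4 treated livers (-0.96 ± 0.47, adjusted p = 0.271). On day 91 it was 8.61, 9.29, 9.51, 11.07 and 13.87 and 9.29, 9.39, 9.46 and 9.61 (-1.03 ± 0.47, adjusted p = 0.35). The 3 highest controls of day 7 and the 2 highest of day 91 stood above all treated livers of their day, and the lower controls overlapped with them or lay below. The Saa2 differences were -1.23 and -1.15.

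Saa3, which in mice is made by macrophages and fat as well as liver, had a single call. In humanized liver on day 1 its levels were 7.67, 7.75, 7.92, 8.05 and 8.64 in controls and 7.15, 7.27, 7.48, 7.51 and 7.57 in treated livers, every treated liver below every control. The difference was -0.61 ± 0.18, adjusted p = 0.0158, a call lost without control 5004 (-0.45, adjusted p = 0.13) and in a fit of only these 2 groups (0.0686). Wild type and knockout gave -0.29 and -0.28 on that day, which did not pass.

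What the serum amyloid A genes and Lcn2 showed most clearly was a wide spread among single livers. Within groups the SD was 0.71 for Saa1, 0.77 for Saa2 and 0.88 for Lcn2, against 0.27 for Orm3 and 0.06 for Fgb. Saa1 ranged from 8.24 to 13.87 over 166 samples, Saa2 from 6.46 to 13.00 and Lcn2 from 4.12 to 10.50. In 9 livers at least 3 members lay 1 log2 unit or more above the median of the other animals of their group, a limit chosen after the values were seen. They comprised 4 controls of the humanized line (5007 and 5008 of day 7, 5022 and 5023 of day 91), 1 knockout control (3005, day 1) and 4 treated knockouts (4001, day 1; 4007, day 7; 4026 and 4028, day 119). No wild-type liver was among them.

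The highest of all was humanized control 5023, which drank no phenobarbital. Its levels were 13.87 for Saa1, 13.00 for Saa2, 10.50 for Lcn2 and 10.63 for Orm2, while the other 4 controls of that day had Saa1 levels of 8.61, 9.29, 9.51 and 11.07. Treated knockout 4007 had 12.80 for Saa1, 10.57 for Saa2 and 8.88 for Lcn2, against 9.43, 9.49 and 9.82 for Saa1 in the other 3. Humanized control 5007 reached 12.65 for Saa1, 11.26 for Saa2 and 8.61 for Lcn2. High livers thus occurred in both arms and on days from 1 to 119.

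The 9 livers lay within the range of the other livers in markers of other cells, and whether such cells had a part in their levels was not tested. The mean of 11 Kupffer cell markers lay between 8.07 and 8.74 in them and between 7.17 and 8.95 in the other 157. The mean of the 5 tested neutrophil markers lay between 4.59 and 5.28, against 4.41 to 5.62 with a median of 4.63, and 4 knockout livers (3005, 4007, 4026 and 4028) were at 5.02 or more. Hepatocyte markers lay between 13.59 and 13.79, inside the range of the others. Acinar pancreas genes lay between 5.33 and 5.67, so none was among the 29 livers with that signal, and the median over all probe sets was between 5.156 and 5.213.

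**Figure D3:**
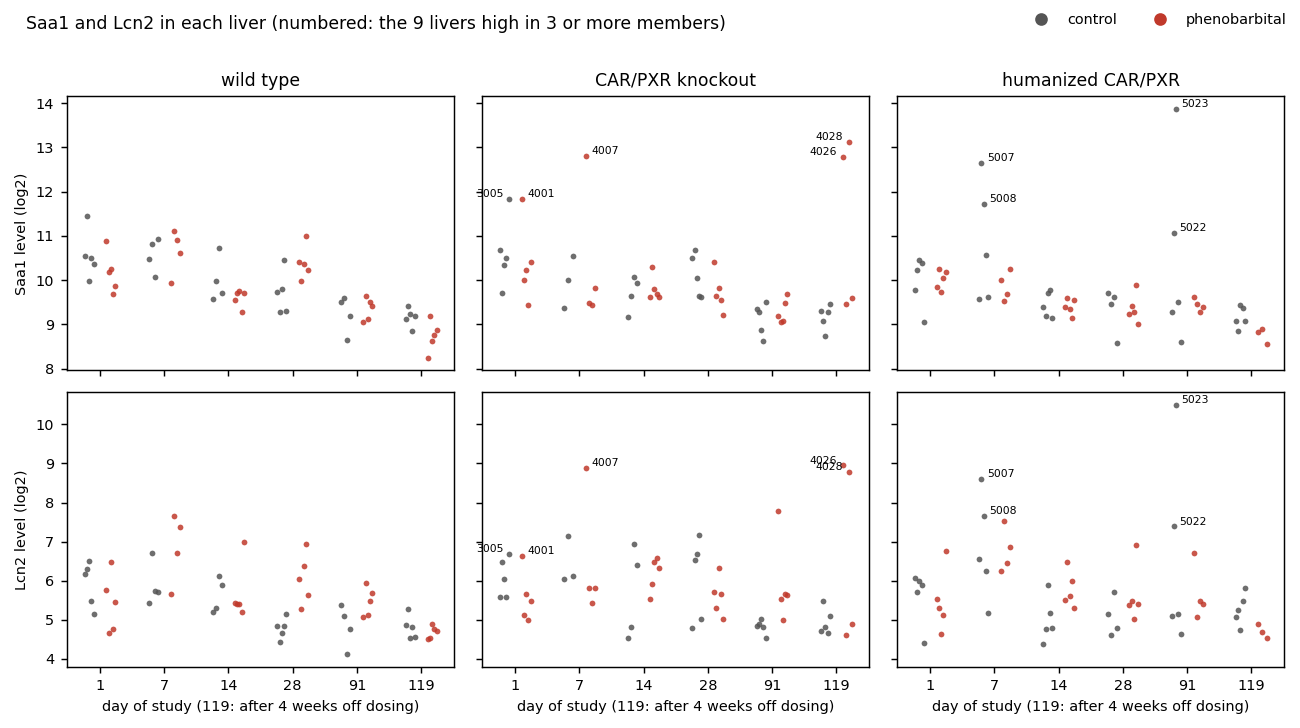
Saa1 (top row) and Lcn2 (bottom row) log2 levels in each liver against the day of study, by genotype, with controls in grey and phenobarbital livers in red. The numbers name the 9 livers in which 3 or more members were at least 1 unit above the rest of their group, among them control 5023 at 13.87 and treated knockouts 4026 and 4028 on day 119.

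The knockout on day 119, 4 weeks after dosing ended, is where Saa1 had its only call. Saa1 levels were 8.73, 9.07, 9.27, 9.30 and 9.46 in controls and 9.46, 9.60, 12.78 and 13.12 in the 4 previously treated livers. Animals 4026 (12.78) and 4028 (13.12) stood more than 3 units above 4027 and 4030, which lay at the top of the control range or just above it. The difference was 2.07 ± 0.47, adjusted p = 0.0253, or 4.21-fold. For Saa2 the levels were 7.09, 7.25, 7.35, 7.47 and 7.47 and 7.03, 7.34, 11.38 and 11.38, so that the arms overlapped and the difference missed the threshold (1.95 ± 0.51, adjusted p = 0.0869).

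Orm1 was the other member to pass, with levels of 13.01, 13.09, 13.11, 13.11 and 13.11 in controls and 13.11, 13.16, 13.49 and 13.78 in treated livers (0.30 ± 0.071, adjusted p = 0.0423). Lcn2 stood at 4.66, 4.70, 4.82, 5.09 and 5.49 and 4.62, 4.89, 8.79 and 8.95, high in the same 2 livers (1.86 ± 0.58, adjusted p = 0.28). Orm2 had 1.32 ± 0.35, adjusted p = 0.0869, Apcs 0.51 ± 0.16, adjusted p = 0.3, and Orm3, Hp, Fgb and Saa3 had 0.42, 0.15, 0.12 and -0.03. Animal 4028 held the highest level of all 166 samples for Orm1 (13.78), Hp (14.16), Fgb (14.39) and Apcs (12.41). Saa2, Lcn2 and Orm2 were high in both 4026 and 4028, whereas Apcs and Hp were high mainly in 4028.

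In all, 2 of 10 members passed, beside 0.111% of all genes (14 genes), and 9 had an unadjusted p under 0.05. Without animal 4028 no member passed limma's test: Saa1 was 1.45 (adjusted p = 0.491), Saa2 1.25 (0.67), Orm1 0.17 (0.659), Orm2 0.81 (0.705) and Lcn2 1.20 (0.81), and 1 gene of all passed. Without 4026 again none passed, with Saa1 at 1.56 (adjusted p = 0.342) and Orm1 at 0.26 (0.265), and 9 genes of all passed. The Saa1 call was also lost without controls 3026, 3027 or 3028 (adjusted p = 0.051, 0.0666 and 0.106), and the Orm1 call without any 1 of the 5 controls (adjusted p = 0.0514 to 0.14). In a fit of only these 2 groups neither call was kept (adjusted p = 0.611 and 0.612), and Orm1 was also lost with quantile normalization (0.0678) and with no filter on dim genes (0.0634). Leaving out a low treated liver did the reverse, with 6 members called without 4027 and 5 without 4030.

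The test of this effect against the wild-type effect of the same day did not pass for any member. Knockout minus wild type was 2.51 ± 0.64, adjusted p = 0.192, for Saa1, 2.42 ± 0.70, adjusted p = 0.282, for Saa2, and 0.38 ± 0.098, adjusted p = 0.192, for Orm1. So 0 of 10 passed limma's test, beside 0.0317% of all genes, while 7 had an unadjusted p under 0.05. Without 4027, or without 4030, Saa1, Saa2, Orm1 and Orm2 passed, with Saa1 at 3.10 (adjusted p = 0.0128) and 3.05 (0.0192). A difference between the genotypes on day 119 is therefore not shown with all livers.

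**Figure D4:**
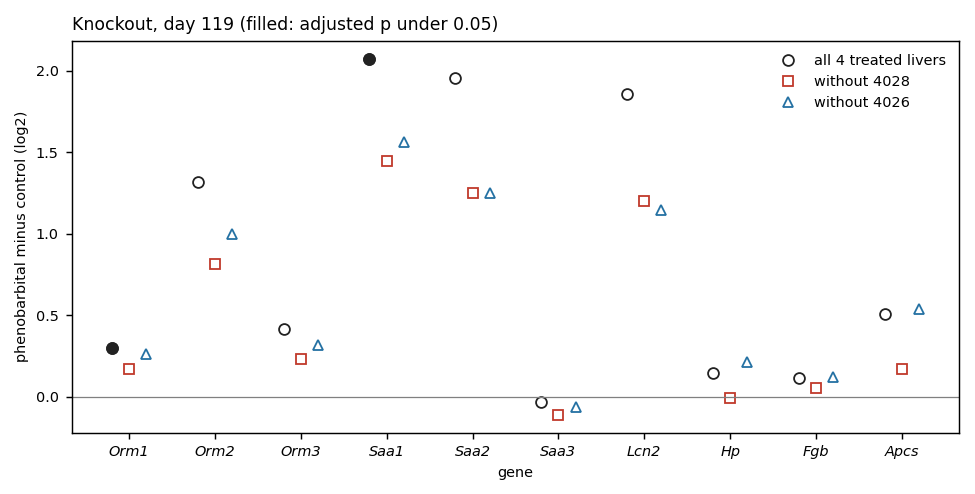
Phenobarbital minus control differences (log2) of the 10 members in the knockout on day 119, with all 4 treated livers (circles), without animal 4028 (squares) and without animal 4026 (triangles), filled where the adjusted p was under 0.05. Saa1 falls from 2.07 to 1.45 without 4028 and to 1.56 without 4026, and no symbol is filled in either case.

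Other genes of the pathway moved in the same group. Among 23 tested positive acute phase genes outside the members, Lrg1 (0.79 ± 0.17, adjusted p = 0.0147), a secreted glycoprotein, and Fgl1 (0.95 ± 0.20, adjusted p = 0.0147), a fibrinogen-like hepatokine, passed, both higher and none lower, beside 0.0792% of all genes called higher and 0.0317% lower. Of 23 receptor and signalling genes the transcription factor Stat3 passed (0.45 ± 0.098, adjusted p = 0.0188), and of 8 feedback genes Socs3, the inhibitor that STAT3 induces (2.27 ± 0.51, adjusted p = 0.0253). Socs3 was 11.24 in 4028 and 8.47 in 4026, the lowest of the 4 treated livers, so its order differed from that of Saa1. Without 4028 none of these 4 passed (Socs3 1.76, adjusted p = 0.446; Lrg1 0.39, 0.651), and without 4026 all 4 did (Socs3 2.69, adjusted p = 0.00737).

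No cell marker passed limma's test in the knockout on day 119, 0 of 60 over the 11 lists, with 4 at an unadjusted p under 0.05. As only 0.111% of all genes passed there, this count says little about the cell content of these livers. The mean of 11 Kupffer markers lay between 8.15 and 8.74 in treated and between 7.89 and 8.78 in control livers. The 5 neutrophil markers averaged 4.46 to 5.11 against 4.59 to 4.84, highest in 4026 (5.11) and 4028 (5.09). The part of these cells in the Saa1 and Lcn2 levels was not tested. In this group 1 control carried acinar pancreas signal, with a list mean of 10.46.

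Lcn2 passed in no comparison. On day 28 in wild type its levels were 4.44, 4.67, 4.83, 4.85 and 5.14 in controls and 5.28, 5.64, 6.05, 6.37 and 6.94 in treated livers, which did not overlap. The difference was 1.27 ± 0.55, adjusted p = 0.193 in the fit of all groups, where its SD within groups was 0.88, and it passed when only those 2 groups were fitted (adjusted p = 0.0167). Over the dosing days the mean was 0.48 ± 0.26, adjusted p = 0.146, in wild type, 0.14 in the knockout and 0.05 in humanized mice.

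Fgb was slightly lower with phenobarbital in all genotypes, the opposite direction to Orm2 and Orm3. On day 1 in humanized liver its levels were 14.06, 14.08, 14.09, 14.10 and 14.24 in controls and 13.83, 13.84, 13.85, 13.92 and 14.04 in treated livers, without overlap. It fell by 0.22 there (difference -0.22 ± 0.038, adjusted p = 1.44e-05). The mean differences over dosing were -0.13 ± 0.018, adjusted p = 1.43e-09, in wild type, -0.14 ± 0.018, adjusted p = 4.84e-11, in humanized mice, and -0.07 ± 0.018, adjusted p = 0.00286, in the knockout, all kept without any 1 animal. On single days Fgb was also called in wild type on days 1 and 14, in the knockout on day 1, and in humanized mice on days 7 and 28, between -0.14 and -0.16. Of these the knockout call was lost without 3001, 4002 or 4003 (adjusted p = 0.0506, 0.0503 and 0.0708), the humanized day 7 call without 6006 (0.198) and the day 28 call without 5019 (0.0951). All 6 single-day calls were lost in fits of only the 2 compared groups (0.0733 to 0.234), and those of wild-type day 14, knockout day 1 and humanized day 7 with quantile normalization (0.0658, 0.0731 and 0.122).

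Hp was called with phenobarbital on day 1 only, where it was lower. In wild type its levels were 13.75, 13.78, 13.79, 13.82 and 13.93 in controls and 13.43, 13.60, 13.62, 13.64 and 13.72 in treated livers, and humanized mice had 13.67, 13.68, 13.72, 13.75 and 13.75 and 13.40, 13.43, 13.51, 13.54 and 13.62, without overlap in either. The differences were -0.21 ± 0.069, adjusted p = 0.0291, and -0.21 ± 0.069, adjusted p = 0.0265. In the knockout -0.20 did not pass (adjusted p = 0.0565), but did without 3003 (-0.23, 0.0389) or 4001 (-0.23, 0.0494). The wild-type call was lost without 1001, 1003, 2002 or 2004 (adjusted p = 0.0521 to 0.156) and the humanized call without 5001, 5004, 6002 or 6003 (0.0561 to 0.0824). Both were lost in fits of only the 2 groups (0.0748 and 0.0612).

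Apcs was higher in wild type, with 0.30 ± 0.072, adjusted p = 0.000374 over the dosing days. Day 1 levels were 10.61, 10.82, 10.89, 11.05 and 11.14 in controls and 11.06, 11.30, 11.32, 11.53 and 11.69 in treated livers, overlapping only at the edge (0.48 ± 0.15, adjusted p = 0.0243). Day 28 levels were 10.45, 10.55, 10.68, 10.73 and 10.74 and 10.82, 10.88, 11.15, 11.27 and 11.36, without overlap (0.47 ± 0.15, adjusted p = 0.0496). The day 1 call was lost without 1001, 1003, 2002 or 2004 (adjusted p = 0.0548 to 0.104) and the day 28 call in 8 of 10 omissions (up to 0.173, without 2019) and with no filter on dim genes (0.0681), while the mean held in all omissions. Humanized Apcs passed on day 14 (0.49 ± 0.15, adjusted p = 0.0213), a call lost without 5012 (0.0568) or 5015 (0.0653). Its mean of 0.16 missed the threshold (adjusted p = 0.0774) and passed without 5023, 6006 or 6022 (adjusted p = 0.0226, 0.0352 and 0.0346). The knockout mean was 0.10 ± 0.073, adjusted p = 0.352.

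Control livers of the genotypes differed in several members without the drug. They also differed in acinar pancreas signal, as given above, and whether that signal had a part in the member differences was not tested. Against wild-type controls over 6 days, humanized controls were higher in Orm3 (0.45 ± 0.071, adjusted p = 1.36e-07), Orm2 (0.35 ± 0.14, adjusted p = 0.0457) and Apcs (0.25 ± 0.065, adjusted p = 0.00198), which makes 3 of 10 beside 28.1% of all genes. The Orm2 call was lost in 24 of 56 omissions (up to 0.125, without 5023). Knockout controls were higher in Apcs (0.42 ± 0.067, adjusted p = 2.58e-07) and lower in Hp (-0.10 ± 0.030, adjusted p = 0.00727), 2 of 10 beside 22.4%. Humanized minus knockout controls gave 1 of 10, Orm3 (0.37 ± 0.071, adjusted p = 7.12e-05), beside 16.6%. These shares are close to those of all genes. The humanized minus knockout count became 2 in 12 of 56 omissions, through Apcs (-0.20 to -0.18, adjusted p = 0.0196 to 0.0499), and the humanized minus wild-type count became 4 in 7, through Fgb or Hp.

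Among other acute phase genes more were called lower than higher while Orm2 and Orm3 rose, as was also the case over all genes tested. Wild-type mice had 11.8% of all genes called higher and 19.7% lower, humanized mice 14.9% and 17.5%, and the knockout 8.64% and 11.0%. Of the 23 other positive acute phase genes, wild-type mice had 2 higher and 11 lower over the dosing days, humanized mice 2 and 13, and the knockout 2 and 3, with medians of -0.11, -0.15 and 0.00 beside -0.013, -0.002 and 0.008 over all genes. The knockout counts lie near the share of all genes. Tested directly, knockout minus wild type had 7 of the 23 higher and 1 lower, beside 7.67% and 5.77% of all genes. Humanized minus knockout had 0 higher and 8 lower, beside 5.66% and 4.49%. Hamp, the iron hormone hepcidin, fell by 0.79 in wild type (adjusted p = 9.68e-06) and by 1.15 in humanized mice (adjusted p = 1.3e-10). Lrg1 fell by 0.36 and 0.54 there and was higher in the knockout (0.24 ± 0.076, adjusted p = 0.0141). Itih3, which stabilizes the hyaluronan matrix, fell by 0.35 and 0.29, while the pantetheinase Vnn1 was higher by 0.43 and 0.55. On day 1 the list had 1 higher and 8 lower in wild type, 0 and 5 in the knockout, and 0 and 8 in humanized mice, beside 6.97%, 4.61% and 7.78% of all genes called lower. The differences that day were, in the same order, for the endotoxin-binding protein Lbp -0.54, -0.54 and -0.79 and for the constitutive Saa4 -0.50, -0.33 and -0.58.

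Negative acute phase genes, which fall in inflammation, are set beside the same shares (19.7%, 17.5% and 11.0% of all genes called lower in wild-type, humanized and knockout mice). Of 13 tested, wild type had 1 higher and 9 lower, humanized mice 1 and 8, and the knockout 1 and 0. The corticosteroid-binding globulin Serpina6 was the higher one in each (0.69, 0.54 and 0.22), and the growth factor Igf1 was among the lower ones (-0.24 and -0.22). Tested directly, knockout minus wild type had 5 of the 13 higher and 1 lower, beside 7.67% and 5.77% of all genes. Humanized minus knockout had 1 higher and 4 lower, beside 5.66% and 4.49%.

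Among 23 receptor and signalling genes, wild type had 1 higher and 9 lower, humanized mice 1 and 11, and the knockout 1 and 7, beside the same 19.7%, 17.5% and 11.0% of all genes called lower. The interleukin 6 receptor chain Il6ra was lower in all 3 (-0.59 ± 0.10, adjusted p = 1.51e-06, -0.75 ± 0.10, adjusted p = 9.07e-10, and -0.53 ± 0.10, adjusted p = 7.33e-05). So was the transcription factor Cebpd (-0.25, -0.44 and -0.56). Of 8 feedback genes, wild type had 0 higher and 1 lower, humanized mice 1 and 1, and the knockout 2 and 1. The shares of all genes called higher were 11.8%, 14.9% and 8.64%, and those called lower are given above. The NF-kB inhibitor Nfkbia was lower in each (-0.33, -0.28 and -0.22). Of 9 cytokine genes, 2 were bright enough to test.

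Across the 166 samples, some members varied together within groups and others did not. As a description, the deviations from group means of Saa1 and Saa2 had r = 0.95, Saa1 and Orm2 0.81, Saa1 and Lcn2 0.75, and Orm2 and Orm3 0.61, while Saa1 and Fgb had 0.16, Orm1 and Fgb 0.07, Orm3 and Fgb 0.07, Saa3 and Orm3 0.06 and Saa3 and Fgb -0.04. Without the 9 high livers (157 left) the first 4 were 0.82, 0.48, 0.35 and 0.52. Outside the members, the genes whose deviations followed the members' mean most closely were Prg4 (r = 0.74), Fgl1 (0.62), Hpx (0.62), Itih4 (0.61), Prtn3 (0.58) and Tmem176a (0.56), over the same 166 samples, which share arrays and laboratory. Without the 9 livers these were 0.38, 0.28, 0.21, 0.23, 0.13 and 0.13.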

How the data were processed

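Liver RNA was measured on 167 Affymetrix arrays of 1 colour, each labelled as a separate animal. The authors deposited log2 expression values, made with RMA per the submitters' processing notes, whose version was not given in the sources used here. Arrays have no sequencing depth, so their number limits the precision. Of 45101 probe sets 34958 carry 1 symbol in the platform annotation. A gene's probe set with the highest mean was used, and a gene was tested if it exceeded the array median on at least 3 arrays. From these values limma 3.58.1 (R 4.3.3) fitted 36 group means over 166 samples (130 residual degrees of freedom), with contrasts of phenobarbital minus control, their mean over 5 dosing days, and differences between genotypes and days. The script was tested on simulated data.

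The named genes are the members, up to 4 called genes of each pathway list per comparison with the largest differences, and the 6 genes outside the members whose deviations from group means correlated best (Pearson) with the members' mean. The members and lists were chosen with earlier results of these data known. The alternatives were quantile normalization, no filter, array weights, the second probe set, only the compared groups, near-identical arrays left out or kept apart, and each animal left out in turn. Among the members the second probe set could change the levels of Saa1 only, as the others have a single probe set. Contrasts that share livers are not independent. Upstream sequences are RefSeq's, build GRCm38.p6. Human receptor transgene levels were not analysed here.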

Additional observations from a re-analysis of the deposited data

Results flagged for a closer look

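Over the groups of 4 or 5 animals, 340 combinations of member and group were looked at, and 30 values stood apart from their group by Dixon's gap criterion, which chance alone meets in about 1 in 20 of them. No explanation was tested for any of them. Treated knockout animal 4007 of day 7 stood above its group in 5 members, with Saa1 at 12.80, Saa2 at 10.57, Orm1 at 13.67, Lcn2 at 8.88 and Hp at 14.10.

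Among the other Saa values, Saa1 reached 10.29 in treated knockout 4012 (day 14). Saa2 reached 8.62 in wild-type control 1002 (day 1) and 7.57 in humanized control 5029 (day 119). Saa3 reached 7.84 in treated wild-type 2019 (day 28) and 7.79 in treated wild-type 2022 (day 91).

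Orm1 was high in wild-type control 1021 of day 91 (13.25) and in treated knockout 4018 of day 28 (13.53). It was low in treated knockout 4015 of day 14 (13.15), knockout control 3028 of day 119 (13.01) and treated humanized 6015 of day 14 (13.15). Orm2 was high in treated wild-type 2013 of day 14 (8.95), and Orm3 in treated humanized 6005 of day 1 (7.04).

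Lcn2 was high in treated wild-type 2015 of day 14 (6.99), treated knockout 4021 of day 91 (7.78) and treated humanized 6019 of day 28 (6.91), and low in humanized control 5005 of day 1 (4.40). Hp was high in treated wild-type 2019 of day 28 (13.86) and in humanized controls 5015 of day 14 (13.66) and 5023 of day 91 (14.12). Fgb was low in treated wild-type 2012 of day 14 (13.90) and high in humanized control 5004 of day 1 (14.24). Apcs was high in wild-type control 1007 of day 7 (11.12), treated knockout 4014 of day 14 (11.81) and treated humanized 6019 of day 28 (11.57), and low in humanized control 5005 of day 1 (10.81).

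Orm3 was the member whose effect differed between groups in a direct test. Its mean effect over dosing differed by -0.89 between knockout and wild type and by 1.12 between humanized mice and the knockout, and its day 91 effect exceeded that of day 1 by 0.99 in wild type, 1.06 in the knockout and 1.08 in humanized mice.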

How the results depend on the processing

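Of 53 calls of members over all comparisons, 30 were kept under every alternative run, 34 under every left-out animal and 36 under the other alternatives, and none changed direction. Counts of called members that moved by more than 1.5 times were as follows, and smaller moves are not listed. With quantile normalization they were 0 (knockout day 1), 1 (knockout day 119) and 1 (humanized day 7), and with no filter 1 on knockout day 119. With array weights they were 3 (wild-type day 91), 4 (knockout day 119), 1 (humanized day 119) and 2 (humanized minus knockout controls). Fits of only the 2 compared groups, which have fewer degrees of freedom, gave 1 and 2 in wild type on days 1 and 91, 0 in the knockout on days 1, 28, 91 and 119, and 1 in humanized mice on days 1 and 7. The 1 of humanized day 1 was Orm2 (adjusted p = 0.0299), which did not pass in the fit of all groups.

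Leaving out each animal gave counts of 1 to 3 (wild-type days 1 and 91), 1 to 2 (wild-type day 7), 2 to 4 (wild-type day 28), 2 to 3 (wild-type day 14), 0 to 2 (knockout day 1), 0 to 1 (knockout day 28), 1 to 2 (knockout day 91), 0 to 6 (knockout day 119), 1 to 3 (humanized day 1), 1 to 2 (humanized days 7 and 91) and 2 to 3 (humanized days 14 and 28). It gave 3 to 5 for the humanized mean, 1 to 2 for the knockout against either other genotype, 0 to 4 for knockout minus wild type on day 119, 0 to 1 for day 91 minus day 1 in wild type and in the knockout, 2 to 4 for humanized minus wild-type controls and 1 to 2 for humanized minus knockout controls. No paired analysis was possible because every animal has its own number. The cause of these changes was not tested.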

Other observations

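Control livers differed between days. In the 15 controls of day 1, over the 3 genotypes, Saa1 ran from 9.06 to 11.83 with a median of 10.38, and in the 15 controls of day 119 from 8.73 to 9.46 with a median of 9.18. Lcn2 ran from 4.40 to 6.69 (median 5.99) on day 1 and from 4.54 to 5.82 (median 4.87) on day 119. Orm1 ran from 13.16 to 13.63 on day 1 and from 13.01 to 13.16 on day 119. No test was run on this, and day, age and the time of processing cannot be told apart in it.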
